A study of Homo sapiens with 3 samples.

Results

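The regions described are the peaks of human chromosome 14 (chr14), taken as every accessibility peak that the matrix places on that chromosome. They number 6360 of 215590 peaks, or 2.95%. They were measured with the 10x Genomics Multiome assay, which reads RNA and open chromatin from the same cell. The cells are NCI-H226, a human mesothelioma line that is null for NF2, and NCI-H226_CL3 (CL3 below), 1 clone of it selected for growth in a small-molecule TEAD inhibitor at 0.25 µM rising to 3 µM in steps of 0.1 to 0.5 µM. The pool held CL3 with the TEAD inhibitor GNE7883, CL3 with DMSO, parental cells with GNE7883 and parental cells with DMSO, all of them null for NF2 and each marked by a hashtag antibody. The matrix names no hashtag, so no cell could be placed in a line or treatment, all cells are 1 pooled sample, and effects of line and of treatment cannot be told apart from other differences between cells. Cells are not replicates, so no p-value is given. The 95% intervals are exact and cover counting error only.

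Human chr14 is acrocentric: its short arm holds ribosomal DNA and satellite repeats, and its single-copy genes lie on the long arm. That arm carries the oxygen-sensing factor HIF1A, the microRNA-processing enzyme DICER1, the chaperone HSP90AA1, an imprinted domain around DLK1 and MEG3, and the immunoglobulin heavy chain genes near its end. It also carries members of the Hippo pathway (SAV1, FRMD6, AJUBA and MAP4K5), the kinase cascade that restrains YAP and TEAD and that includes NF2. A Tn5 count over a stretch of DNA depends on how open its sites are and on how many copies of the stretch a cell carries. Counts of peaks alone cannot tell these apart.

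Barcodes needed 1000 unique molecular identifiers (UMIs) and 1000 peak counts, with no more than 20% of the UMIs mitochondrial, and 8913 cells met this. They held a median of 1524 UMIs (1000 to 13064) and 4034 peak counts (1001 to 59374). Most peak entries were even, since a fragment has a pair of ends, so 2 counts were taken as 1 event. The mesothelial markers KRT8, KRT18 and 11 others summed to between 13099 and 13777 UMIs per 1000000 non-mitochondrial UMIs (CPM) in the 5 groups of cells used below. Epithelial, immune and endothelial markers stayed at or under 25.2 CPM, and fibroblast markers reached 180 CPM.

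The chr14 peaks lay between 19 and 107 Mb of GRCh38 and had a median length of 881 bases (259 to 1207). Of them, 795 (12.5%) lay within 1 kb of a gene start, against 10.6% of the peaks elsewhere. These 795 held 37.4% of the chr14 counts, where such peaks elsewhere held 34.4% of the counts elsewhere. The 64 peaks with most counts held 10.6% of the chr14 counts. The promoters below are shown because, among promoters whose 250 bases lie whole inside a peak, theirs have the most counts in each of 3 stretches set apart further on. DCAF11, a substrate receptor of a cullin ubiquitin ligase, lies in the stretch up to 55 Mb. ALDH6A1, a dehydrogenase of valine breakdown, and LIN52, a subunit of the DREAM cell-cycle repressor complex, start head to head inside 1 peak at chr14:74084209-74085136. TEDC1, a tubulin complex subunit, lies beyond 75 Mb. Each line gives the 250 bases before the gene start from RefSeq (GRCh38.p14), 5′ to 3′ on the gene's own strand, with CCAAT boxes (CCAAT or ATTGG) in capitals.
DCAF11, chr14:24114527-24114776, plus strand: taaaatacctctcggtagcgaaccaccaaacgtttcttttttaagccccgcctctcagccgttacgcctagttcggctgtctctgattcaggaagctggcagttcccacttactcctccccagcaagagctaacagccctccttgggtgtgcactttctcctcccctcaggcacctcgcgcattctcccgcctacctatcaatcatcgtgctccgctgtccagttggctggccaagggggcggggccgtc
ALDH6A1, chr14:74084454-74084703, minus strand: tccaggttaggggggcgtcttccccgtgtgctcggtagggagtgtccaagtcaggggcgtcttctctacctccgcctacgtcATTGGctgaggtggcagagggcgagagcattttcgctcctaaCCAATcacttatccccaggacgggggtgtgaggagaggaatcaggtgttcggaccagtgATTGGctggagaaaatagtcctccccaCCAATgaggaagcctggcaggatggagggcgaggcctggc
LIN52, chr14:74084706-74084955, plus strand: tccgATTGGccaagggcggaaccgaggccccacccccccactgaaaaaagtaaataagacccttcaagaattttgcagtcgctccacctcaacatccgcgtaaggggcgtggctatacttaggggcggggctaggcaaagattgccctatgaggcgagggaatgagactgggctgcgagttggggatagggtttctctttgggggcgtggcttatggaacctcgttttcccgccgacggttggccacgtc
TEDC1, chr14:105490996-105491245, plus strand: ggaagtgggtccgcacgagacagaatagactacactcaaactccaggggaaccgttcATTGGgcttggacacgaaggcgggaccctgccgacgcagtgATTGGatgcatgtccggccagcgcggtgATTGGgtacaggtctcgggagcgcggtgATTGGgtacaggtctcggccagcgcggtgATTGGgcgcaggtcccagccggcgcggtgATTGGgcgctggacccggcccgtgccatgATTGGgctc
The CCAAT box, chosen after these sequences had been read, occurred 0 times before DCAF11, 4 times before ALDH6A1, 1 time before LIN52 and 7 times before TEDC1. Of all 35116 RefSeq promoters in the table, 32.0% held it in the same 250 bases on either strand, as did 37.7% of the 541 chr14 promoters lying inside a chr14 peak. The GC box (GGGCGG or CCGCCC) was found in 66.2% of those 541 and in 42.6% of all promoters. The TEAD motif (GGAATG or CATTCC) was found in 8.32% of the 541 and in 11.9% of all, and 1 copy lay before LIN52. An AP-1 motif (TGANTCA, its own reverse complement) was found in 4.62% of the 541 and in 6.57% of all, and 1 copy lay before DCAF11. Over all 1158 chr14 promoters, in a peak or not, 32.4% held the CCAAT box and 42.5% the GC box. The TEAD motif was found in 12.6% of these and the AP-1 motif in 5.61%, each near its share among all promoters. The 541 thus set promoters inside peaks against promoters in general, and their differences are not read as a trait of chr14. Each motif was counted on its own, overlaps included, and a match describes these letters only.

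Over all cells, chr14 took 2.72% of peak counts (95% interval 2.71 to 2.72) and its 1474 genes took 2.63% of non-mitochondrial UMIs (2.62 to 2.64). The barcodes not kept as cells gave 2.69% of peak counts, and barcodes of 1 to 99 UMIs, which carry free RNA, gave 2.69% of UMIs. A cell had a median of 109 counts in 56 chr14 peaks and 36 UMIs from chr14 genes. Its chr14 share of peak counts had a median of 2.74%, with 5% of cells under 1.80% and 5% over 3.58%. To compare cells at 1 depth, the 4725 cells with at least 2000 events were each thinned to 2000, and 4188 shallower cells were left out.

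At that depth the chr14 share averaged 2.72% with a standard deviation of 0.524 points over cells, where counting alone gives 0.364 points. The variance was 2.08 times that of counting, which left a coefficient of variation of 13.9% beyond counting. Among the 22 autosomes and X, this placed chr14 in position 4, after chromosome 22 (18.4%), chromosome 13 (15.1%) and chromosome 18 (14.2%), and above chromosome 15 (6.78%) and chromosome 20 (8.03%). The excess lay in both tails and more in the low one. A share under 2% was found in 379 cells (8.02%), against 1.70% from counting, and a share over 3.5% in 256 cells (5.42%), against 1.59% from counting.

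**Figure D1:**
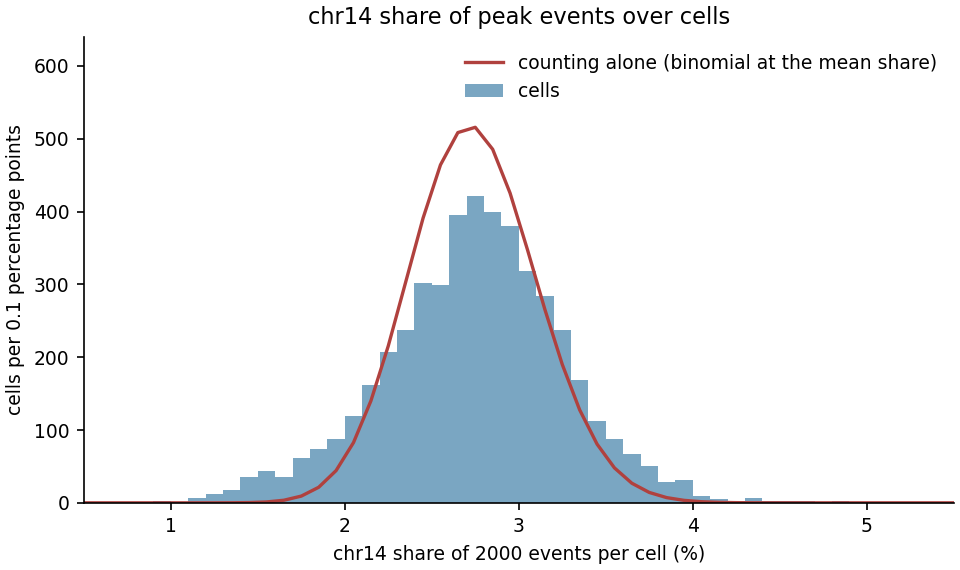
Cells (vertical axis, number per 0.1 percentage points) by their chr14 share of 2000 thinned peak events (horizontal axis, %), with the binomial curve at the mean share of 2.72% in red. The bars are wider than the curve on both sides, and 379 of 4725 cells lie under 2%.

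The share was then set against measures that did not choose the cells. Cells were ordered by share and cut into quintiles of 945 cells, whose mean shares were 1.97%, 2.48%, 2.74%, 2.98% and 3.42% by construction. The lowest quintile ended at 2.30%, where the next began, and the highest began at 3.15%, where the fourth ended. RNA of chr14 genes stood higher in each quintile than in the one before. These genes took 2.30%, 2.59%, 2.67%, 2.70% and 2.78% of non-mitochondrial UMIs, with no interval overlapping its neighbour's except between the third and the fourth. The largest step was between the lowest quintile and the second. The chr14 peaks were also split by alternate order along the chromosome, and quintiles were drawn from one set alone. The even peaks, held out, gave 1.19, 1.39, 1.45, 1.51 and 1.58 events per 100 events outside chr14, and the odd peaks gave 1.14, 1.34, 1.40, 1.45 and 1.52. Per cell, peak share and UMI share had a Pearson r of 0.33 and a Spearman rho of 0.29 over 4725 cells of 1 pair of libraries, as a description.

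**Figure D2:**
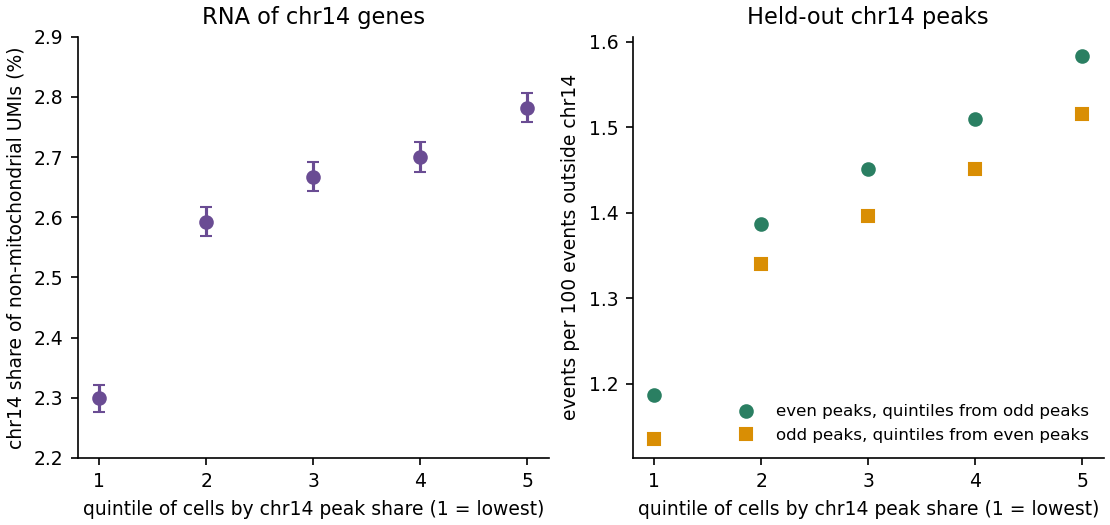
Left, chr14 share of non-mitochondrial UMIs (%, with 95% counting intervals; the axis starts at 2.2) in quintiles of 945 cells ordered by chr14 peak share; right, events of held-out chr14 peaks per 100 events outside chr14. RNA stands at 2.30% in the lowest quintile and 2.78% in the highest, and the held-out peaks stand higher in each quintile than in the one before.

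The highest quintile is called high and the lowest quintile low below. Held-out peaks were 1.33-fold (1.32 to 1.35) as frequent in high as in low cells for both sets, and the UMI share was 1.21-fold (1.19 to 1.23) as large. With every chromosome's own high and low cells taken in the same way, the UMI ratio of chr14 came in position 4 of 23, after chromosomes 22 (1.28), 18 (1.21) and 13 (1.21), while chromosome 10 had the smallest at 1.04. Depth and quality were close between the groups: high cells had a median of 1872 UMIs, 6985 peak counts and 14.4% mitochondrial UMIs, and low cells 1798 UMIs, 6987 peak counts and 14.8%. The share of counts at gene starts was 34.5% in high cells and 34.3% in low cells. Fibroblast markers summed to 180 CPM in high cells and 80.03 CPM in low cells. Of the 5 listed, only 1 held enough UMIs for the comparison of single genes below, at 2.23-fold. Their part in the result was not tested. Of the 13 mesothelial markers, 11 could be compared there, with a median of 0.912-fold and 0 called. An interval above 1 was found for 1 of them and below 1 for 4, where all genes compared gave 10.4% and 9.15%. Other chromosomes moved with chr14 in these cells. Per event outside chr14, peaks of X (1.16-fold, 1.15 to 1.17), chromosome 21 (1.14-fold, 1.13 to 1.16) and chromosome 8 (1.09-fold, 1.09 to 1.10) were more frequent in high than in low cells. Peaks of chromosome 13 (0.858-fold, 0.851 to 0.866) and chromosome 22 (0.881-fold, 0.871 to 0.891) were less frequent. RNA went the same way, with UMI ratios of 1.10 for X, 1.14 for chromosome 21, 1.04 for chromosome 8, 0.908 for chromosome 13 and 0.923 for chromosome 22.

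The difference between high and low cells was not even along the arm. For each window of 10 Mb, cells were chosen again on the rest of chr14, so that the window's own counts took no part. The peaks from 50 to 60 Mb gave 1.46-fold (1.43 to 1.49) as many events in high as in low cells, those from 60 to 70 Mb 1.47-fold (1.44 to 1.496) and those from 70 to 80 Mb 1.43-fold (1.40 to 1.46). Nearer the centromere the ratios were 1.37 (1.34 to 1.40) from 20 to 30 Mb, 1.38 (1.35 to 1.42) from 30 to 40 Mb and 1.28 (1.24 to 1.33) from 40 to 50 Mb. Toward the end of the arm they were smaller, at 1.24 (1.20 to 1.27) from 90 to 100 Mb and 1.17 (1.14 to 1.20) beyond 100 Mb. In the window from 80 to 90 Mb, high and low cells could not be told apart, at 0.102 events per 100 outside chr14 in high cells and 0.101 in low cells, a ratio of 1.01 (0.970 to 1.06). RNA followed a like course. Genes from 50 to 60 Mb gave a UMI ratio of 1.35 (1.31 to 1.40), those from 60 to 70 Mb 1.29 (1.25 to 1.34) and those from 70 to 80 Mb 1.31 (1.26 to 1.37). In the other windows the UMI ratio lay between 1.08 (1.05 to 1.11, 40 to 50 Mb) and 1.26 (1.21 to 1.32, 30 to 40 Mb), save 0.910 (0.817 to 1.01) from 80 to 90 Mb. Single genes weighed on 2 of these values. From 40 to 50 Mb, RPS29 held 47008 of 68852 UMIs, with a ratio of 1.02, and the 10 genes compared had a median of 1.22. The window from 80 to 90 Mb had 666 UMIs in high and 703 in low cells. There STON2 alone had 53 and 163, in cells chosen on all of chr14. The 23 peaks before 20 Mb had a ratio of 1.54 (1.28 to 1.87) and too few UMIs (35 in all cells) to read.

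Peak by peak, again with cells chosen outside the peak's own window, 1524 chr14 peaks had at least 40 events in high and low cells together. Of these, 518 had an interval above 1 (34%) and 7 an interval below 1 (0.459%). In cells chosen on all of chr14, 54025 peaks of other chromosomes gave 7.55% above and 5.8% below, with a median ratio of 1.01. The median ratio was 1.35 for the 502 at gene starts and 1.40 for the 1022 others. The peak with most counts, shared by ALDH6A1 and LIN52, was found in 16.8% of cells and had 345 events in high and 219 in low cells, a ratio of 1.61 (1.36 to 1.92). The peak at the start of MAP3K9, a mixed-lineage kinase, had 282 events in high and 164 in low cells, a ratio of 1.76 (1.45 to 2.15). By contrast, the peak at the starts of NRL and DCAF11 had 264 in high and 233 in low cells, a ratio of 1.15 (0.960 to 1.38). The largest ratios lay at less used sites near CDCA4 (5.65, 2.76 to 13.1), GPR135 (5.04, 2.52 to 11.2) and PSMA3 (5.01, 2.31 to 12.4), where low cells had 8 to 10 events each. The smallest was a site at chr14:87691185-87692149, 35890 bases from the start of the non-coding gene LINC02330. It had 3 events in high and 45 in low cells, a ratio of 0.067 (0.013 to 0.209). The sites with the largest and smallest ratios were picked for their ratio among the 1524. A site rare in 1 group can pass the floor of 40 events mainly through the other.

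RNA of single genes showed the same tilt. Genes were compared where both groups together held 100 UMIs and the higher reached 20 CPM, and were called at 1.5-fold with an interval that excludes 1. Of 5838 genes compared, 186 were higher in high cells (3.19%) and 149 lower (2.55%). Of the 186 chr14 genes among them, 30 were called higher (16.1%) and 2 lower (1.08%), and 167 had a ratio over 1. An interval above 1 was found for 75 of them (40.3%) and below 1 for 3 (1.61%), where all genes gave 10.4% above and 9.15% below and genes elsewhere 9.41% and 9.39%. Their median ratio was 1.24-fold, or 0.31 on the log2 scale, and that of the 5652 genes elsewhere was 1.00-fold. Called higher were 9 of the 37 genes compared from 50 to 60 Mb, 9 of 30 from 60 to 70 Mb and 4 of 23 from 70 to 80 Mb. From 20 to 30 Mb they were 4 of 26, and from 30 to 40 Mb 0 of 21. The 5 genes compared from 80 to 90 Mb had a median ratio of 1.09. With cells of at most 10% mitochondrial UMIs, which leaves 705 cells and 711 genes compared, 19 of them on chr14, 0 chr14 genes were called.

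**Figure D3:**
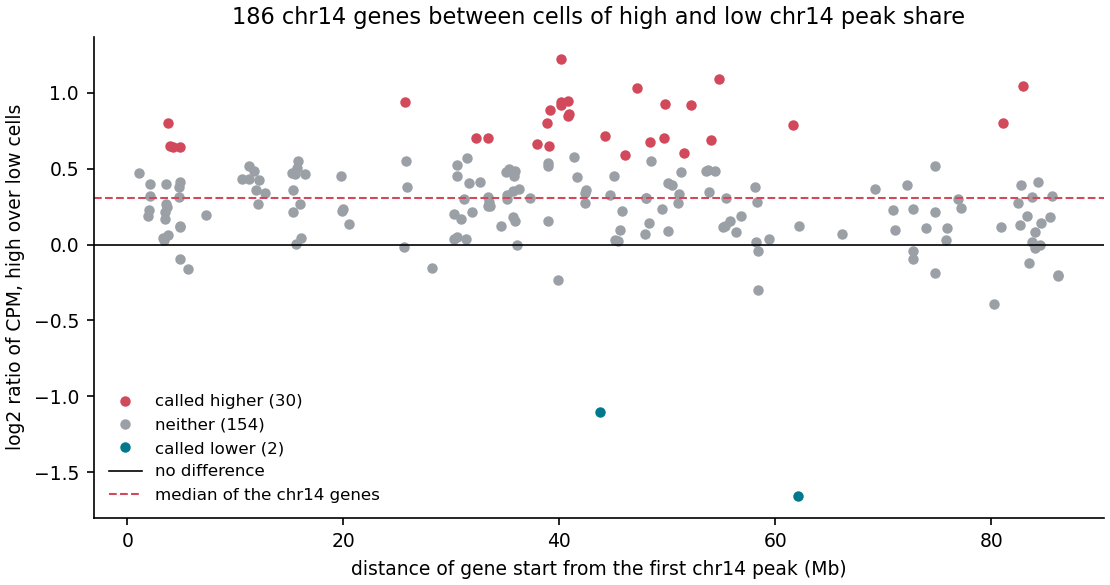
log2 ratio of CPM in high over low cells for the 186 chr14 genes compared, by distance of the gene start from the first chr14 peak (Mb); colours give the call and the dashed line the median (0.31). Most genes sit above 0, and KCNH5 and STON2 lie far below. Most of the 30 called higher lie in the middle of the arm, where many of the genes compared lie as well.

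The largest chr14 ratio belonged to GPR135, an orphan G protein-coupled receptor, at 101 CPM in high and 43.2 CPM in low cells, a ratio of 2.34 (1.77 to 3.11). LIN52 stood at 42.2 CPM in high and 19.9 CPM in low cells (2.13-fold, 1.40 to 3.29), in step with the peak at its start. MOK, a kinase related to the MAP kinases, lay far from the others at 102 Mb, with 117 CPM in high and 56.7 CPM in low cells (2.06-fold, 1.61 to 2.66). GPHN, the gephyrin scaffold of inhibitory synapses that also makes molybdenum cofactor, had 141 CPM in high and 68.9 CPM in low cells (2.04-fold, 1.63 to 2.57). SIPA1L1, a GTPase-activating protein for Rap, was the most abundant of the 12 largest at 330 CPM in high and 175 CPM in low cells (1.89-fold, 1.64 to 2.18). The others of these 12 had ratios of 1.82 to 1.92. They were the dehydrogenase DHRS7, the splicing factor PRPF39, JKAMP of the endoplasmic reticulum, the ubiquitin ligase adaptor DCAF5, the hydroxyproline dehydratase L3HYPDH, the ciliary protein KIAA0586 and PPM1A, a phosphatase of SMAD proteins. L3HYPDH and JKAMP start head to head.

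Against this, STON2, an adaptor of synaptic vesicle endocytosis at 81.4 Mb, was at 30.2 CPM in high and 95.2 CPM in low cells (0.317-fold, 0.228 to 0.435). KCNH5, a voltage-gated potassium channel at 63.1 Mb, was at 35.4 CPM in high and 75.9 CPM in low cells (0.466-fold, 0.338 to 0.635), inside the stretch where most genes had ratios over 1. The third with an interval below 1 was the LIM protein CRIP1, at 370 CPM in high and 425 CPM in low cells (0.870-fold, 0.782 to 0.969), which was not called.

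By role, shares are to be read against the 16.1% of all chr14 genes called higher and the 3.19% of all genes. Of the 4 Hippo members, 3 could be compared and 1 was called higher. FRMD6, a FERM-domain activator of the pathway, stood at 271 CPM in high and 167 CPM in low cells (1.63-fold, 1.40 to 1.89). MAP4K5, a kinase of the family that acts on LATS, had 139 CPM in high and 113 CPM in low cells (1.23-fold, 1.01 to 1.49). SAV1, the scaffold of the MST kinases, had 49.6 CPM in high and 48.5 CPM in low cells (1.02-fold, 0.749 to 1.40), and AJUBA was under the floor. Of 11 signalling genes compared of 25 listed, 2 were higher and 0 lower, with a median of 1.09-fold, under the 1.24-fold of all chr14 genes. These were NUMB, an endocytic inhibitor of Notch, at 185 CPM in high and 115 CPM in low cells (1.61-fold) and the phosphatase subunit PPP2R5E at 162 CPM in high and 98.7 CPM in low cells (1.64-fold). Of 9 matrix and adhesion genes, 1 was called, the actin cross-linker ACTN1 at 419 CPM in high and 257 CPM in low cells (1.63-fold, 1.45 to 1.84). Of 8 metabolic genes, 2 were called, GPHN and the GMP reductase GMPR2 (1.56-fold, 1.04 to 2.35). None was called of 5 transcription factors (median 1.17-fold), 10 genes of DNA repair, chromatin and cell cycle (1.34-fold) or 17 genes of protein synthesis, folding and degradation (1.18-fold). An interval above 1 was found for 3, 6 and 5 of them in that order, and an interval below 1 for 0. HIF1A was at 327 CPM in high and 259 CPM in low cells (1.27-fold, 1.12 to 1.44). The repair gene RAD51B was at 303 CPM in high and 207 CPM in low cells (1.46-fold, 1.28 to 1.68). HSP90AA1 was at 1471 CPM in high and 1119 CPM in low cells (1.31-fold, 1.24 to 1.40). No gene of the imprinted domain reached the floor.

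Off chr14, 156 genes were called higher (2.76%) and 147 lower (2.60%). The largest ratios were those of SAMD3 (98.7 CPM in high and 22.8 CPM in low cells, 4.33-fold), IL1RAPL1, a synaptic member of the interleukin-1 receptor family (3.68-fold), and HMGA2, an architectural chromatin protein (317 CPM in high and 88.8 CPM in low cells, 3.57-fold). BTBD11, the chemokine CCL5, the non-coding AC007319.1, the antiviral enzyme RSAD2, ITGBL1, the antiviral GTPase MX2 and the glucose transporter SLC2A1 followed with 2.35-fold to 2.86-fold. The smallest ratio was that of PPP2R2B, a regulatory subunit of phosphatase 2A (9.13 CPM in high and 120 CPM in low cells, 0.0758-fold). ADGRL3, a latrophilin adhesion receptor (32.5 CPM in high and 238 CPM in low cells, 0.136-fold), and the integrin subunit ITGB8 (0.206-fold) came next. ERRFI1, a brake on EGFR, the phosphatase PTPRQ, the serine synthesis enzyme PHGDH, DPP10 and the non-coding AC005580.1, DANT2 and AL022068.1 lay between 0.283-fold and 0.391-fold. Of 16 interferon response genes compared, 10 were higher and 0 lower, with a median of 1.68-fold. IFIT3 had 90.7 CPM in high and 39.7 CPM in low cells (2.28-fold, 1.71 to 3.08), and MX1 had 119 CPM in high and 54.9 CPM in low cells (2.16-fold, 1.69 to 2.79). The 15 YAP/TEAD targets compared had a median of 1.07-fold, and 10 had a ratio over 1. An interval above 1 was found for 6 and below 1 for 1. Of the 15, 2 were called higher, the receptor kinase AXL (1.57-fold, 1.29 to 1.91) and the ectonucleotidase NT5E (1.73-fold, 1.16 to 2.62), and 0 lower. CCN1 had 1.19-fold (1.06 to 1.35). Of 10 NF-kB and cytokine genes, 2 were lower, NFKB2 (0.658-fold) and CXCL8 (0.566-fold). Of 5 genes of MAPK output, 1 was higher (PHLDA1, 1.84-fold). None was called of 13 S phase genes or 10 housekeeping genes, and of 25 G2/M genes 1 was lower (ECT2, 0.638-fold).

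Clusters of cells were drawn from the peaks outside chr14, so that chr14 took no part, and 7 of them held at least 100 cells. In 5 of the 7, chr14 took 2.69% to 2.78% of peak counts. Cluster 3 (729 cells) had 1.96% and cluster 2 (1618 cells) had 3.04%, and they also stood apart in RNA, with 2.13% of UMIs in cluster 3 and 2.82% in cluster 2. Set against all other cells, cluster 3 had 2.00 chr14 events per 100 outside chr14 and the others 2.89, a ratio of 0.694 (0.688 to 0.700), with a UMI ratio of 0.792 (0.783 to 0.802). Cluster 2 had 3.14 and the others 2.71, a ratio of 1.16 (1.15 to 1.16), with a UMI ratio of 1.09 (1.09 to 1.10). Median depth was 1788 UMIs in cluster 3 and 1724 in cluster 2. Of the high cells, 36.9% were of cluster 2 and 1.16% of cluster 3. Of the low cells, 4.87% were of cluster 2 and 38.2% of cluster 3. These clusters carried the genes named above: SAMD3, HMGA2 and IL1RAPL1 were high in cluster 2, at 3.92-fold to 3.94-fold of all other cells, and PPP2R2B (8.93-fold), ADGRL3 (8.13-fold) and ITGB8 (6.09-fold) were high in cluster 3. No cluster was given a cell type, and neither is read as a line or a treatment.

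With quintiles taken inside each cluster, the held-out ratio was 1.15, the UMI ratio 1.09, and 53 genes were called higher and 45 lower. Of 184 chr14 genes compared, 10 were then called higher (5.43%) and 1 lower, where 0.935% of all genes compared were called higher. Without clusters 2 and 3, the held-out ratio was 1.14 and the UMI ratio 1.07, with 33 genes called higher and 28 lower, of which 7 and 1 were on chr14. Called higher were 4.79% of the chr14 genes compared there and 0.755% of all genes compared. The variation beyond counting was 8.54% in the remaining cells, against 13.9% in all. Within cluster 3 it was 19.4%, and in the other 6 clusters it lay between 7.24% and 10.8%. With quintiles inside clusters, all 10 windows had an interval above 1 for peaks. The 23 peaks before 20 Mb had 1.30-fold (1.09 to 1.57). The other windows ran from 1.11-fold (1.06 to 1.16) at 80 to 90 Mb to 1.19-fold (1.17 to 1.22) at 50 to 60 Mb. For peaks, the middle of the arm no longer stood out: 60 to 70 Mb had 1.15-fold and 70 to 80 Mb 1.19-fold, and 30 to 40 Mb also had 1.19-fold. RNA had 0.996-fold (0.892 to 1.11) at 80 to 90 Mb and 1.17-fold (1.13 to 1.21) at 50 to 60 Mb. Without clusters 2 and 3, peaks had 1.15-fold, 1.13-fold and 1.13-fold in the 3 windows from 50 to 80 Mb. They had 1.15-fold at 80 to 90 Mb and 1.16-fold at 90 to 100 Mb.

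Along the arm, the ratios of clusters 2 and 3 varied by stretch. In windows of 1 Mb, cluster 3 had an interval below 1 in 28 of the 36 windows from 19 to 55 Mb (median ratio 0.670), in 20 of 20 from 55 to 75 Mb (median 0.580) and in 16 of 32 from 75 to 107 Mb (median 0.913). Cluster 2 had an interval above 1 in 16 of 36, 20 of 20 and 6 of 32 of the same windows, with medians of 1.05, 1.34 and 1.03. Its highest single window was at 37 to 38 Mb (33 peaks, 1.66-fold, 1.45 to 1.91), outside the middle stretch, where the highest was 1.49. These 3 stretches were set after the windows had been seen. Summed over a stretch, cluster 3 had 0.658-fold (0.649 to 0.668), 0.578-fold (0.568 to 0.587) and 0.924-fold (0.910 to 0.939) the events of all other cells. Cluster 2 had 1.08-fold (1.07 to 1.09), 1.35-fold (1.34 to 1.36) and 1.03-fold (1.01 to 1.04). RNA did likewise, with 0.790, 0.706 and 0.899 in cluster 3 and 1.02, 1.28 and 1.04 in cluster 2. The promoter peaks shown above were then set beside their stretch. The ALDH6A1 and LIN52 peak had 36.4 events per 1000000 events outside chr14 in cluster 3 and 75.2 in all other cells (0.483-fold, 0.389 to 0.594), and 105 in cluster 2 and 63.1 in all other cells (1.67-fold, 1.501 to 1.85). The DCAF11 peak had ratios of 0.763 (0.629 to 0.918) in cluster 3 and 1.06 (0.929 to 1.20) in cluster 2. The TEDC1 peak had 1.03 (0.845 to 1.24) in cluster 3 but 1.31 (1.14 to 1.504) in cluster 2, above that stretch as a whole.

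The step near 75 Mb was narrow in both clusters. In windows of 0.25 Mb from 74 Mb on, cluster 3 had ratios of 0.489 (0.427 to 0.557), 0.683, 0.882, 0.846 and, from 75 Mb, 1.06 (0.942 to 1.19). Cluster 2 had 1.54 (1.43 to 1.64), 1.28, 1.12, 0.967 and, from 75 Mb, 0.998 (0.909 to 1.09). Around 55 Mb cluster 2 had 1.09 (1.01 to 1.19) from 54.75 Mb, 1.13 (1.06 to 1.21) from 55 Mb and 1.31 (1.22 to 1.40) from 55.25 Mb, where cluster 3 had 0.636, 0.601 and 0.557. Some windows ran the other way: 9 had an interval above 1 in cluster 3 and 10 an interval below 1 in cluster 2. The largest departures lay in windows of few peaks, but windows of more peaks were among them, such as 84 to 85 Mb (49 peaks) at 1.29-fold (1.13 to 1.47) in cluster 3 and 44 to 45 Mb (81 peaks) at 0.882-fold (0.828 to 0.939) in cluster 2. The 5 peaks from 27 to 28 Mb had 2.82-fold (1.84 to 4.22) the events of all other cells in cluster 3 and 0.237-fold (0.093 to 0.502) in cluster 2. The 10 peaks from 28 to 29 Mb had 3.94-fold (2.99 to 5.16) in cluster 3 and 0.340-fold in cluster 2. The 24 peaks from 87 to 88 Mb, which hold the LINC02330 site, had 3.31-fold (2.78 to 3.92) in cluster 3 and 0.434-fold in cluster 2, and the windows at 82 and 86 Mb gave 2.04 and 2.14 in cluster 3. Of the 78 events at the LINC02330 site, 44 came from cluster 3 and 3 from cluster 2.

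Genes followed the stretches as well. Against all other cells, 45 of 243 chr14 genes were lower in cluster 3 and 4 higher, where 6.04% of all genes were lower and 5.66% higher. From 55 to 75 Mb, 27 of 75 genes were lower and 1 higher, with a median of 0.729-fold; from 19 to 55 Mb 12 of 98 were lower and 1 higher (0.745-fold); beyond 75 Mb 6 of 70 were lower and 2 higher (0.971-fold). LIN52 at 74.1 Mb stood at 13.01 CPM in cluster 3 and 26.7 CPM in all other cells (0.487-fold, 0.281 to 0.792). FCF1, a factor of ribosome assembly at 74.7 Mb, had 44.4 CPM in cluster 3 and 37.2 CPM in all other cells (1.19-fold, 0.893 to 1.57). In cluster 2, 14 of 80 genes from 55 to 75 Mb were higher and 1 lower (median 1.30-fold), against 4.61% higher and 3.29% lower among all genes. From 19 to 55 Mb 1 of 102 was higher and 4 lower (1.04-fold), and beyond 75 Mb 4 of 69 were higher and 3 lower (0.985-fold). KCNH5 ran opposite to its stretch in both clusters. It was at 106 CPM in cluster 3 and 37.3 CPM in all other cells (2.83-fold), and at 27.2 CPM in cluster 2 and 47.7 CPM in all other cells (0.570-fold). STON2 lay among windows with ratios over 1 in cluster 3 (1.13, 1.02 to 1.24, at 81 to 82 Mb). STON2 was at 128 CPM in cluster 3 and 39.1 CPM in all other cells (3.27-fold), and at 20.8 CPM in cluster 2 and 53.8 CPM in all other cells (0.387-fold). Over the 4725 thinned cells, the shares of the first and the second stretch had a Pearson r of 0.28, while the third stretch had 0.06 with the first and 0.04 with the second, as a description.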

How the data were processed

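The authors deposited 1 matrix of raw counts per feature and barcode, UMI counts for genes and transposition counts for peaks, with no normalisation and no filter to cells. The submitters' processing notes name GRCh38.p10, MACS2, ArchR 1.0.3 and Cell Ranger ARC 2.0.0 without saying which of them made the peaks. Of peak entries 87.9% were even. The members, lists and cuts were chosen with earlier results of these data known. Events were counts divided by 2, rounded up, and cells were thinned to 2000 by a seeded hypergeometric draw. Scrublet marked 0 cells, so no doublet was removed. Clusters came from 176889 peaks outside chr14 in at least 20 cells (term frequency weighting, 30 components less 1 tied to depth, 15 neighbours, Leiden resolution 0.5). Scaling the components within each cell was chosen after partitions without that step had been seen. Intervals are Clopper-Pearson for shares and exact conditional binomial for ratios, and are not adjusted for the number compared. A gene low over all cells can pass the floor through 1 group. Genes were named by rule (the 12 largest and smallest chr14 ratios with an interval excluding 1, the 10 largest and smallest calls elsewhere, and list members), and genes given for clusters beyond these were chosen after their values were seen. edgeR 4.0.16 served only for TMM scaling in an alternative. The calls of genes, the variation beyond counting and the held-out ratio were tested on simulated data, and the other steps were not. Python 3.11.15, scipy 1.17.1 and scanpy 1.11.5 were used. The genes of 824 of 1158 chr14 RefSeq promoters matched the matrix by symbol.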

Additional observations from a re-analysis of the deposited data

How the results depend on the processing

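No paired analysis was possible because the data are 1 pooled sample and the results come from no test. The held-out peak ratio (1.33) and the UMI ratio (1.21) stayed above 1 under every alternative run. They were 1.25 and 1.15 at 1000 events, 1.47 and 1.28 at 4000, 1.42 and 1.24 without thinning, 1.48 and 1.32 for the lowest and highest 10% of cells, and 1.16 and 1.10 for a split at the median. With at most 10% mitochondrial UMIs they were 1.21 and 1.09, with at least 2000 UMIs 1.42 and 1.27, and with cells chosen on peaks at gene starts 1.21 and 1.15. Chosen on other peaks, the held-out ratio was 1.27, and without the 8% of cells highest in Scrublet the UMI ratio was 1.23. Within clusters they were 1.15 and 1.09. Leaving out clusters was added after seeing the data, and gave 1.16 and 1.10 without cluster 3 and 1.14 and 1.07 without clusters 2 and 3.

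Counts of genes depended on these settings more. Against 186 higher and 149 lower, 109 were higher at 1000 events, 46 and 40 were called for the split at the median, 12 and 18 with at most 10% mitochondrial UMIs, 53 and 45 within clusters, 116 and 44 without cluster 3, and 33 and 28 without clusters 2 and 3. A floor of 10 UMIs gave 502 and 351, a 2-fold threshold 28 and 31, and choice on peaks at gene starts 94 lower. Of chr14 genes, against 30 higher and 2 lower, 15 were higher at 1000 events, 4 for the split at the median and 4 at 2-fold. These were 6.70%, 1.64% and 2.15% of the chr14 genes compared, against 1.56%, 0.624% and 0.480% of all genes. The number of chr14 genes compared differed: the floor of 10 UMIs gave 49 and 5 of 407, and at most 10% mitochondrial UMIs 0 and 0 of 19, against 30 and 2 of 186. Within clusters they were 10 and 1 of 184, without cluster 3 12 and 1 of 178, and without clusters 2 and 3 7 and 1 of 146. Called higher were thus 5.43%, 6.74% and 4.79% of chr14 genes in that order, against 0.935%, 2.15% and 0.755% of all genes. RNA ratios had an interval above 1 in 8 of 10 windows, in 3 with at most 10% mitochondrial UMIs and in 5 without cluster 3. The chr14 share was 2.77% of autosomal counts and 2.26% of all UMIs, and the variation beyond counting was 15.7% at 4000 events. The lowest cluster share was 1.93% at resolution 0.3 and 1.94% at 1.0, and the highest 3.00% with all peaks clustered. Of the 35 genes named by rule, 7 turned in direction under 1 setting each. Without clusters 2 and 3 the log2 ratios were 0.15 for CRIP1, -0.036 for HMGA2, -0.044 for IL1RAPL1 and -0.80 for ITGBL1. With at most 10% mitochondrial UMIs they were -0.24 for LIN52 and -0.86 for MX2, and within clusters -0.10 for RSAD2. With 1 pooled sample, no difference here has a replicate check, and the cause of these shifts was not tested.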
